A study of Mus musculus with 6 samples.

Results

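The genes described here are 10 that encode surface proteins with which antigen-presenting cells encourage or restrain T cells: the B7 family ligands Cd80, Cd86, Icosl, Cd274 and Pdcd1lg2, the TNF family ligands Tnfsf4, Tnfsf9 and Cd70, and the maturation proteins Cd40 and Cd83. They were chosen by name from the 24062 gene symbols of the count tables, with earlier results of these data known, and all 10 had enough counts to be tested, among 13155 tested genes. The libraries were made from polyA RNA of C57BL/6J mouse marrow, from femur and tibia, cultured with GM-CSF (20 ng/ml, renewed on days 3, 6 and 10), a cytokine from which dendritic cells and macrophages grow. The 3 low tension samples were grown at 2 kPa, a physiological stiffness, and the 3 high tension samples at 50 kPa, a stiffness of fibro-inflammatory disease. The titles call them dendritic cells, but no label names a sort, and none says that replicates were separate cultures or animals, so p-values reflect the variation among these samples, part or all of which could be technical. Genotype, cytokine and feeding were shared by both groups, and the question was how stiffness alters transcription in such cultures.

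T cells need a second signal beside antigen, and these proteins supply or withhold it. CD80 and CD86 bind the activating receptor CD28 and the inhibitory receptor CTLA-4, ICOS ligand binds ICOS, and the ligands PD-L1 (Cd274) and PD-L2 (Pdcd1lg2) bind the inhibitory receptor PD-1. OX40 ligand (Tnfsf4), 4-1BB ligand (Tnfsf9) and CD70 sustain T cells through TNF receptor family members, while CD40 receives the CD40 ligand signal from T cells and drives dendritic cells to mature. In marrow cultures with GM-CSF, CD86, CD40 and CD83 are used as markers of maturing dendritic cells.

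None of the 10 genes differed between the stiffnesses at a Benjamini-Hochberg adjusted p under 0.05 in edgeR's quasi-likelihood test, in which 3.45% of tested genes did (1.98% lower and 1.47% higher at 50 kPa). At an unadjusted p under 0.05 edgeR gave 5 of the 10, all lower at 50 kPa, beside 14.8% of tested genes that were lower by that measure. These were Cd86, Cd40, Cd83, Tnfsf9 and Cd70, and they were also the 5 whose levels at 50 kPa all lay below their levels at 2 kPa, as in 16.9% of tested genes. DESeq2 called 4 of the 10 lower (Cd86, Cd40, Cd83 and Cd70), beside 9.51% of genes lower by DESeq2, and limma-voom called 0, beside 3.27% of genes called by it. Of the 10 log2 fold changes (50 kPa over 2 kPa, given with their standard errors) 8 were negative, as were 53.2% over all tested genes, and the median was -0.64 against -0.03 over all tested genes. In these bulk samples, fewer cells of a type and less RNA per cell cannot be told apart.

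**Figure D1:**
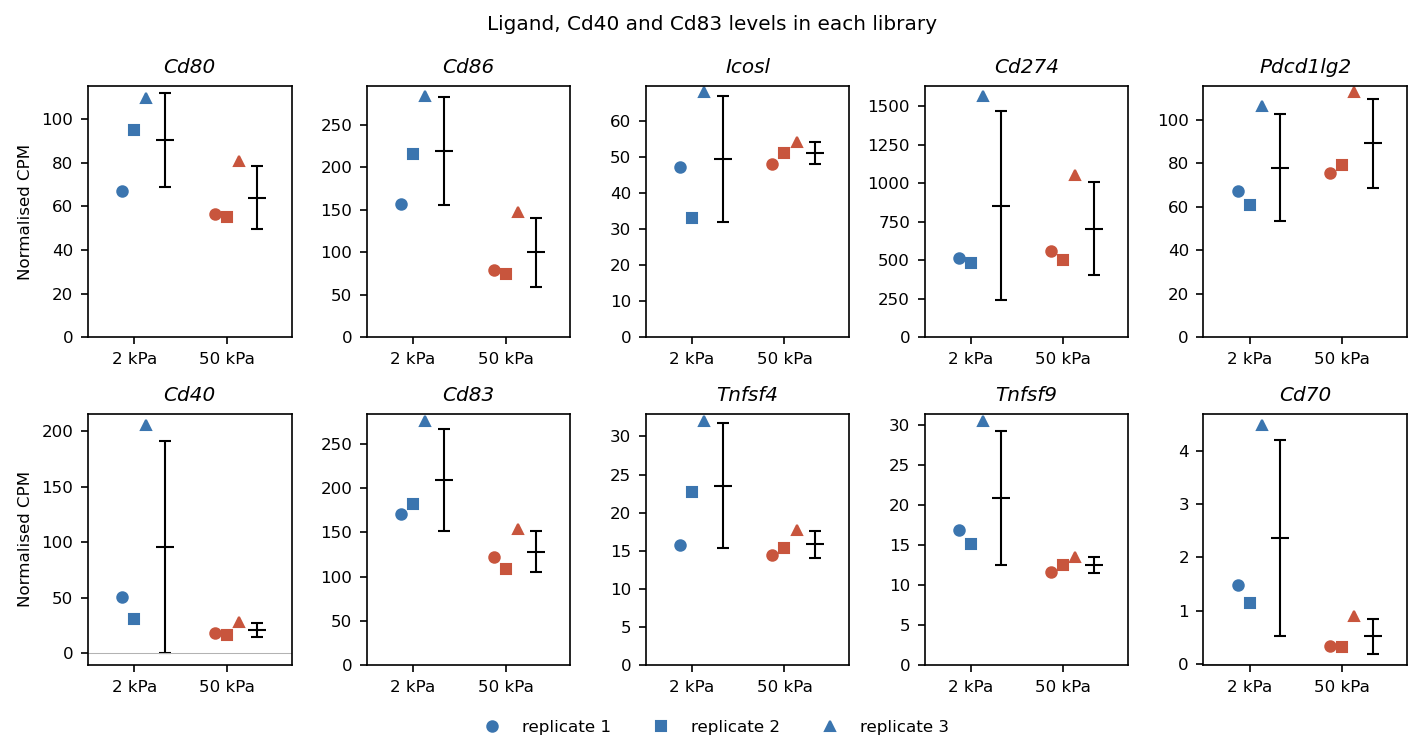
Normalised counts per M of the scaled library (CPM, y axis) of the 10 genes at 2 kPa (blue) and 50 kPa (red), with 1 symbol shape per replicate number and the mean ± SD of 3 libraries in black. Cd86, Cd40, Cd83, Tnfsf9 and Cd70 lay lower in every 50 kPa library than in any 2 kPa library, and replicate 3 was the highest of its group for all 10 genes.

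Libraries held 33834485 to 36270938 counts, so a level of 1 CPM stood for 32.1 to 41.7 counts, and Cd70 alone of the 10 genes had fewer than that in some libraries. Levels are CPM, counts per M of the TMM-scaled library. High tension replicates 1 and 2 were closer to each other than were other pairs of a group (chi-square per degree of freedom 6.71, against 126 to 233). With their counts summed into 1 sample edgeR called 0 of the 10 genes and 0 genes in all, with 2138 genes at an unadjusted p under 0.05. Replicate 3 held the highest level of its group for all 10 genes at 2 kPa and for all 10 at 50 kPa, shares that over all tested genes were 33.2% and 42.3%. Where leaving out low tension replicate 3 moved a fold change of the 10 genes by over 1.5 times, the value without it is given too.

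Cd86 encodes the B7 ligand that dendritic cells carry early and raise on maturation, and it lies on chromosome 16 of GRCm38, 36603869 to 36666081, minus strand. Its levels at 2 kPa were 157, 216 and 284 CPM in replicates 1 to 3, and at 50 kPa 79.2, 74.3 and 147 CPM. The highest 50 kPa library stayed below the lowest 2 kPa library, although the gap between them was small. The mean was 219 ± 63.6 CPM at 2 kPa against 100.1 ± 40.5 CPM at 50 kPa (SD, n = 3 each). The log2 fold change was -1.13 ± 0.34 (2.19-fold lower, edgeR adjusted p = 0.103), the smallest adjusted p of the 10 genes. It lay between -0.90 and -1.51 when any 1 library was left out.

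Cd80, the related B7 ligand, lies 1789479 bases away on chromosome 16 (38455561 to 38496335, plus strand). It stood at 67.0, 94.7 and 109 CPM at 2 kPa and at 56.4, 55.0 and 80.5 CPM at 50 kPa. The groups overlapped, since high tension replicate 3 was above low tension replicate 1. The difference of -0.50 ± 0.23 (edgeR adjusted p = 0.215) had a 95% interval from -1.05 to 0.06, which spans no change and a 2-fold lower level alike.

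Icosl, the ligand of ICOS on helper T cells (chromosome 10, 78069302 to 78083913, plus strand), was at 47.2, 33.2 and 68.0 CPM at 2 kPa and at 48.1, 51.3 and 54.2 CPM at 50 kPa. All 50 kPa libraries lay within the range at 2 kPa. Its log2 fold change was 0.05 ± 0.25 (edgeR adjusted p = 0.909; 95% interval -0.55 to 0.65). The sign turned to -0.17 without low tension replicate 2, and to -0.05 with total counts as the scaling.

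The PD-1 ligands Cd274 (29367455 to 29388095) and Pdcd1lg2 (29410919 to 29471161) lie 22823 bases apart on the plus strand of chromosome 19. The 250 bases before the RefSeq start of each (build GRCm38.p6, plus strand) are printed because these neighbours encode both ligands of PD-1 and the NF-kB consensus was found in 1 of the windows. Capitals mark a match to the NF-kB consensus.
Cd274, chr19:29367188-29367437: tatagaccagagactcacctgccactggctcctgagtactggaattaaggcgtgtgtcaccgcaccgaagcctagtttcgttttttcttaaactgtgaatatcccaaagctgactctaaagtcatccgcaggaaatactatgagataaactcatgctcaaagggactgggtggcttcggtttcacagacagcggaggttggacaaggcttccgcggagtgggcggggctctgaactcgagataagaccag
Pdcd1lg2, chr19:29410669-29410918: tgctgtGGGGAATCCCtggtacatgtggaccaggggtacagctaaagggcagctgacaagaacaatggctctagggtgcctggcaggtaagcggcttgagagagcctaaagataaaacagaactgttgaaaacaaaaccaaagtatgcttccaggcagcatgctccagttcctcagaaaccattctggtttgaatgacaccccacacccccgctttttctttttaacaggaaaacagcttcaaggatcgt

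On both strands, 2 motifs were searched in such windows: the NF-kB consensus and the interferon-stimulated repeat GAAANNGAAA. They were found in 7.25% and 2.98% of 32851 promoter windows. RefSeq windows were matched for 4 of the 10 genes (Cd80, Icosl, Cd274 and Pdcd1lg2). That of Cd80 (38458683 to 38458932) lies inside the gene span given above, so it does not cover the bases before the start of that span. The NF-kB consensus occurred in the windows of Pdcd1lg2 (244 to 235 bases before the start) and Icosl (111 to 102 bases before it, minus strand), and the interferon-stimulated repeat in none of the 4. A match describes the letters, not a bound site. Only full matches to these letters were searched, so a window without one may hold a sequence that differs by a letter.

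Cd274, which encodes PD-L1, was the most abundant of the 10 transcripts per exon length. Its levels at 2 kPa were 514, 484 and 1563 CPM, and at 50 kPa 559.7, 502 and 1049.8 CPM. Replicate 3 stood apart at both stiffnesses, 3.13-fold above the mean of replicates 1 and 2 at 2 kPa and 1.98-fold above it at 50 kPa, and the groups overlapped. The log2 fold change of -0.28 ± 0.54 (edgeR adjusted p = 0.754; 95% interval -1.58 to 1.03) turned to 0.50 without low tension replicate 3. Of the exon bases of Cd274, 511 overlap the annotated gene AC119228.1 on the other strand. The sources used here do not say whether the authors counted by strand, so reads of the latter may be included.

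Pdcd1lg2, which encodes PD-L2, stood at 67.2, 60.7 and 106 CPM at 2 kPa and at 75.7, 79.3 and 113 CPM at 50 kPa. The groups overlapped, and high tension replicate 3 was the highest library, which was so for no other of the 10 genes. Its log2 fold change was 0.19 ± 0.26 (edgeR adjusted p = 0.643; 95% interval -0.43 to 0.82), and -0.0070 without high tension replicate 3.

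Cd40, the receptor for CD40 ligand (chromosome 2, 165055627 to 165072948, plus strand), had the largest spread of the 10 genes at 2 kPa relative to its mean. Levels were 50.2, 30.5 and 205 CPM at 2 kPa and 17.9, 16.6 and 28.3 CPM at 50 kPa. The groups did not overlap, but low tension replicate 2 and high tension replicate 3 were close. The means were 95.4 ± 95.8 and 20.9 ± 6.42 CPM (SD, n = 3 each), so the SD at 2 kPa was as large as the mean. The log2 fold change of -2.19 ± 0.73 (4.55-fold lower, edgeR adjusted p = 0.124) was -0.94 without low tension replicate 3, with an edgeR adjusted p of 0.122.

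Cd83, an immunoglobulin family protein of mature dendritic cells that stabilises CD86 and MHC class II at the surface (chromosome 13, 43784775 to 43803132, plus strand), stood at 171, 182 and 276 CPM at 2 kPa. At 50 kPa it was at 122, 109 and 153 CPM, below all 2 kPa libraries. The log2 fold change was -0.71 ± 0.23 (1.63-fold lower, edgeR adjusted p = 0.116), and -0.46 to -0.85 with any 1 library left out.

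Tnfsf4, which encodes OX40 ligand (chromosome 1, 161395409 to 161418410, plus strand), was at 15.8, 22.7 and 32.1 CPM at 2 kPa and at 14.4, 15.3 and 17.8 CPM at 50 kPa. Only high tension replicate 3 reached into the 2 kPa range. Its log2 fold change was -0.57 ± 0.26 (edgeR adjusted p = 0.208; 95% interval -1.19 to 0.05).

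Tnfsf9 and Cd70 lie 38239 bases apart on chromosome 17. Tnfsf9, which encodes 4-1BB ligand (57105325 to 57107757, plus strand), stood at 16.9, 15.2 and 30.5 CPM at 2 kPa and at 11.6, 12.5 and 13.6 CPM at 50 kPa. The 50 kPa libraries lay close together and below all 2 kPa libraries (-0.73 ± 0.28, edgeR adjusted p = 0.154), and the difference was -0.35 without low tension replicate 3. Gm11110 on the other strand shares 192 exon bases with Tnfsf9.

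Cd70, the ligand of CD27 (57145997 to 57149777, minus strand), was the rarest transcript per exon length, with 57, 48 and 149 reads at 2 kPa and 11, 11 and 31 reads at 50 kPa. These counts were levels of 1.48, 1.15 and 4.48 CPM and of 0.342, 0.328 and 0.897 CPM. All 50 kPa libraries were below all 2 kPa libraries. The log2 fold change of -2.16 ± 0.68 (4.47-fold lower, edgeR adjusted p = 0.113) was -1.32 without low tension replicate 3, and leaving out high tension replicate 3 gave -2.80.

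**Figure D2:**
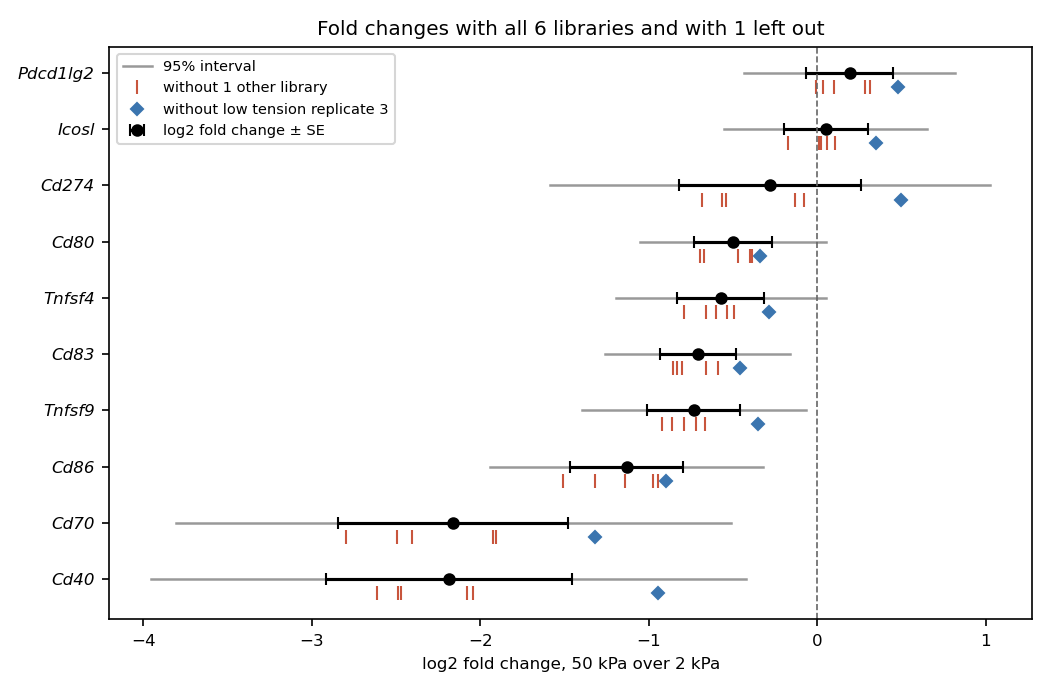
Log2 fold changes (x axis, 50 kPa over 2 kPa) of the 10 genes with SE (black) and 95% interval (grey), and below each the values with 1 library left out. Without low tension replicate 3 (blue diamonds) all 10 values were higher than with all libraries, Cd40 from -2.19 to -0.94 and Cd274 from -0.28 to 0.50.

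Per kb of annotated exon, Cd274 stood above the other 9 genes at both stiffnesses, at 236 ± 170 CPM per kb at 2 kPa and 194 ± 83.1 at 50 kPa (SD, n = 3 each). Its lowest library was above the highest library of the next gene in each group. At 2 kPa the order of mean levels per kb after it was Cd83 (81.5 ± 22.4), Cd86 (59.8 ± 17.4), Pdcd1lg2 (39.8 ± 12.6), Cd40 (28.0 ± 28.1), Cd80 (24.4 ± 5.82), Tnfsf9 (16.2 ± 6.51), Tnfsf4 (12.8 ± 4.44), Icosl (10.7 ± 3.79) and Cd70 (2.81 ± 2.18). From Cd83 to Icosl each gene's libraries overlapped those of its neighbour in this order, so those steps did not exceed the spread.

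At 50 kPa Pdcd1lg2 (45.5 ± 10.4 CPM per kb) came before Cd86 (27.3 ± 11.1), and Cd40 (6.15 ± 1.89) moved from the fifth to the ninth place. Cd80 (17.3 ± 3.87) lay between them and above Icosl (11.1 ± 0.663), its next neighbour, in every library, whereas Icosl and Tnfsf9 (9.74 ± 0.763) overlapped. The levels per kb of Cd274 made up 46.1% of the sum over the 10 genes at 2 kPa and 52.5% at 50 kPa, from the group means.

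**Figure D3:**
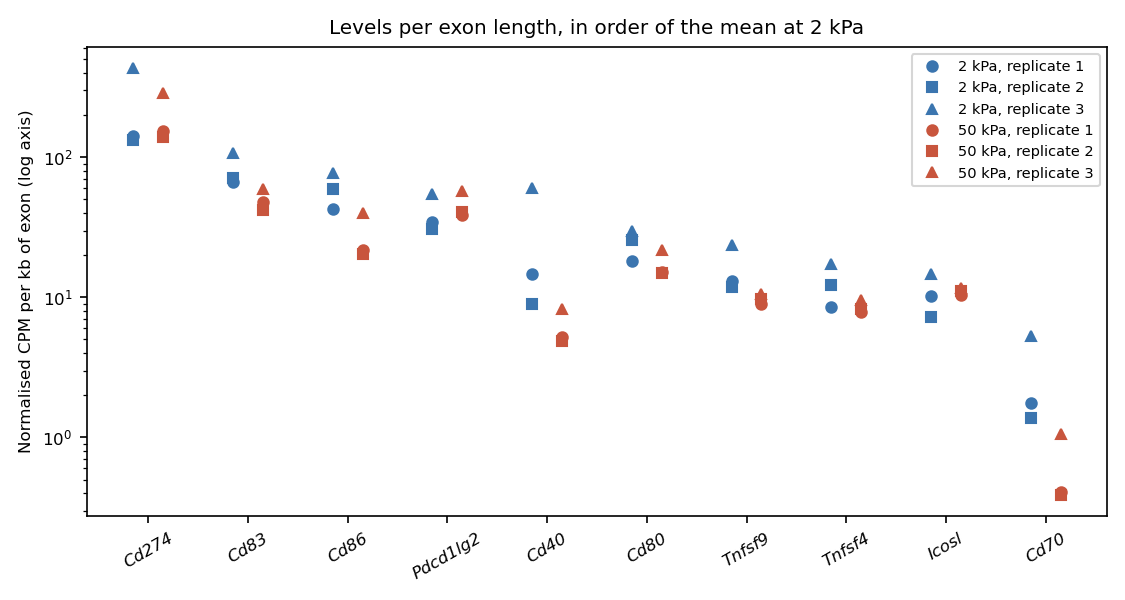
Normalised CPM per kb of exon (log y axis) in each library at 2 kPa (blue) and 50 kPa (red), with genes in order of their mean at 2 kPa. Cd274 stood above all other genes in every library, and Cd70 was lowest, between 0.390 and 5.32 CPM per kb.

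Ratios between ligands within a library do not depend on how libraries are scaled, and 3 were compared. Reads of Cd274 per read of Cd86 numbered 3.27, 2.24 and 5.50 at 2 kPa and 7.06, 6.76 and 7.15 at 50 kPa. All 50 kPa libraries were above all 2 kPa libraries, and the mean log2 ratio was 1.03 higher (2.04-fold; 2-sided exact permutation p = 0.1, adjusted p = 0.15 over the 3 ratios). This difference was 0.72 to 1.37 when any 1 library was left out.

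Reads of Cd80 per read of Cd86 were 0.426, 0.439 and 0.385 at 2 kPa and 0.712, 0.740 and 0.548 at 50 kPa. These groups did not overlap either, with a mean log2 ratio 0.67 higher at 50 kPa (2-sided exact permutation p = 0.1, adjusted p = 0.15), and 0.59 to 0.80 with 1 library left out. With 3 samples against 3, the exact test can give no p below 0.1.

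The ratio of Pdcd1lg2 to Cd274 was 0.131, 0.125 and 0.0681 at 2 kPa and 0.135, 0.158 and 0.107 at 50 kPa. The groups overlapped, and low tension replicate 3 was lowest (log2 difference 0.35, 2-sided exact permutation p = 0.4, adjusted p = 0.4). Without that library the difference was 0.04.

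**Figure D4:**
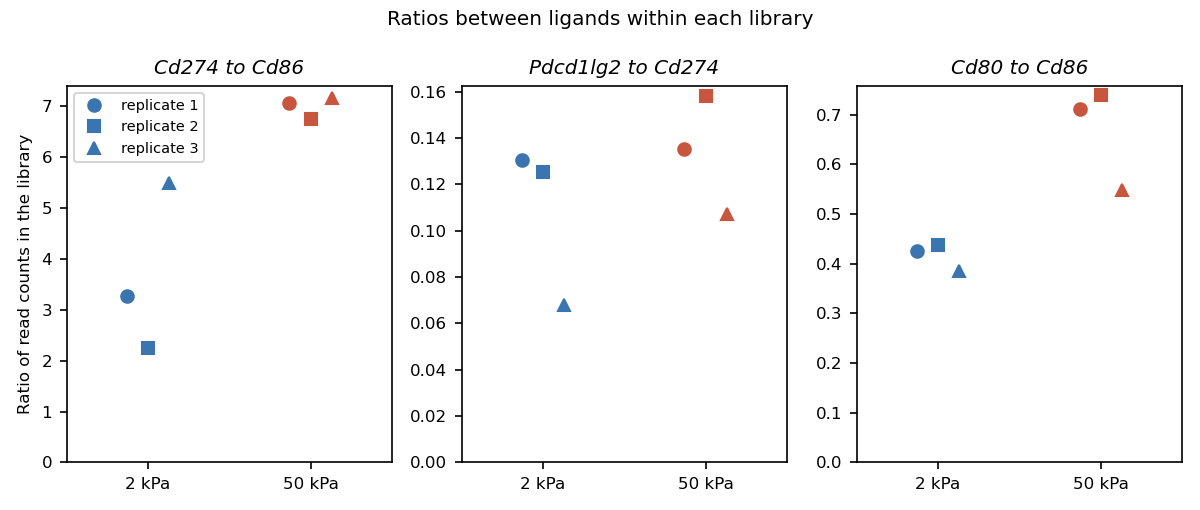
Ratios of read counts (y axis) between pairs of ligands in each library at 2 kPa (blue) and 50 kPa (red). The Cd274 to Cd86 and Cd80 to Cd86 ratios were higher in every 50 kPa library than in any 2 kPa library, and the Pdcd1lg2 to Cd274 ratios overlapped.

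The patterns of the 10 genes over the 6 libraries ranged from nearly the same to unlike. Among their 45 pairs, Pearson's r of log2 CPM over the 6 libraries was from 0.07 (Cd86 with Icosl) to 0.990 (Cd40 with Tnfsf9), and 12 pairs were over 0.9. The libraries share their stiffness groups and replicate 3, so r is given as a description only. The 2 genes closest to each in pattern were Emd and Zfp598 for Cd80, Fam115c and Mmp25 for Cd86, Mertk and Anpep for Icosl, Ptpn12 and Slc15a3 for Cd274, and Shisa5 and Sash1 for Pdcd1lg2. For Cd40 they were Rnf115 and Pdcd10, for Cd83 Tspan33 and Stk39, for Tnfsf4 Stag2 and Tnrc18, for Tnfsf9 Ccdc25 and Pdlim5, and for Cd70 Nmi and Aim1. Their r was 0.990 to 0.999 over 6 libraries. With so few libraries, 184 to 799 of about 9679 genes compared reached r over 0.9 with a given ligand.

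Other B7 and butyrophilin ligands gave 0 calls by edgeR among 4 tested of 6 listed, 1 at an unadjusted p under 0.05 and 1 by DESeq2, with a median log2 fold change of 0.27. The gene with that p was 4632428N05Rik, now named Vsir, which encodes the inhibitory ligand VISTA. It stood at 176 ± 45.5 CPM at 2 kPa against 276 ± 26.1 CPM at 50 kPa, without overlap of the groups (0.65 ± 0.21, edgeR adjusted p = 0.121). Cd276, which encodes B7-H3, was at 21.8 ± 13.8 and 44.1 ± 16.1 CPM with overlap (1.02 ± 0.49, edgeR adjusted p = 0.232), and at 1.68 on the log2 scale without low tension replicate 1.

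Of 10 other TNF family ligands tested (14 listed), 1 fell and 0 rose by edgeR, with a median of -0.50. Among them 2 were lower and 2 higher at an unadjusted p under 0.05, and DESeq2 called 1 lower and 1 higher. Ltb, which encodes lymphotoxin beta, fell from 24.4 ± 2.13 to 8.68 ± 1.68 CPM, a 2.81-fold difference (-1.49 ± 0.16, edgeR adjusted p = 0.0286). That call was lost without low tension replicate 2 or 3 or high tension replicate 1 or 2, with log2 values of -1.37 to -1.46. Those fits called 1, 3, 0 and 0 genes in all, so a lost call there says little about a single gene. Tnfsf8, which encodes CD30 ligand, was at 17.5 ± 9.19 CPM at 2 kPa against 44.5 ± 1.53 CPM at 50 kPa without overlap (1.35 ± 0.42, edgeR adjusted p = 0.109, DESeq2 adjusted p = 0.0174).

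Other ligands of T cell receptors gave 0 calls by edgeR among 7 tested of 8, with 0 at an unadjusted p under 0.05, 0 by DESeq2 and a median of -0.18. Cd200, an inhibitory ligand of myeloid cells, and Cd48, a ligand of CD244, had the smallest p-values, at -0.75 ± 0.35 and -0.18 ± 0.14 (edgeR adjusted p = 0.226 and 0.429).

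Of the receptors for the 10 genes' products, 6 of 8 were tested, and 1 fell and 0 rose by edgeR. At an unadjusted p under 0.05, 3 were lower and 1 higher, and DESeq2 called 3 lower and 1 higher. Icos and Tnfrsf4 lay lower without overlap (-1.31 ± 0.36 and -0.70 ± 0.18, edgeR adjusted p = 0.0911 and 0.0795). Pdcd1, which encodes PD-1, fell from 2.37 ± 0.261 to 0.856 ± 0.139 CPM (-1.47 ± 0.22, edgeR adjusted p = 0.0368). That call too was lost without low tension replicate 2 or 3 or high tension replicate 1 or 2 (edgeR adjusted p = 0.0595 to 0.194). Those fits called 0 to 3 genes in all. Tnfrsf9, which encodes the 4-1BB receptor, stood at 401 ± 117 CPM at 2 kPa against 843 ± 101 CPM at 50 kPa without overlap (1.07 ± 0.24, edgeR adjusted p = 0.0632), while its ligand gene Tnfsf9 stood at -0.73. T and NK cell markers summed to 11.5 to 16.7 CPM at 2 kPa and 10.1 to 15.2 CPM at 50 kPa. In that list 1 of 10 rose, Cd4 (0.473 ± 0.119 to 3.60 ± 1.02 CPM, edgeR adjusted p = 0.0286), which macrophages and dendritic cells can also express, and Klrb1c stood at 1.66 ± 0.55 (edgeR adjusted p = 0.121). Of the 10, 5 log2 fold changes were positive and 5 negative, with a median of 0.02, and 3 were lower at an unadjusted p under 0.05: Lck, Cd2 and Nkg7.

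Genes of CD40 and NF-kB signalling gave 0 calls by edgeR among 15, with 4 at an unadjusted p under 0.05, all lower, and 1 by DESeq2. Of the 15 log2 fold changes 13 were negative, with a median of -0.47. Birc2, which encodes the ubiquitin ligase cIAP1, was at 93.9 ± 20.1 and 59.0 ± 10.96 CPM (-0.67 ± 0.20, edgeR adjusted p = 0.104). Map3k14, the NF-kB-inducing kinase, was at 88.6 ± 10.1 and 65.0 ± 12.7 CPM (-0.45 ± 0.16, edgeR adjusted p = 0.146).

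Genes that act on the proteins, such as the MARCH ligases that remove CD86 and the CMTM proteins that protect PD-L1, gave 0 calls by edgeR among 6. There were 3 at an unadjusted p under 0.05, 2 higher and 1 lower, and 1 call by DESeq2, with a median of 0.25. Cmtm4 was at 15.9 ± 2.51 CPM at 2 kPa against 23.2 ± 2.97 CPM at 50 kPa (0.54 ± 0.16, edgeR adjusted p = 0.0967). March8 was at 72.1 ± 10.9 and 97.4 ± 12.1 CPM with overlap (0.43 ± 0.15, edgeR adjusted p = 0.130). The lower one was Spop, at 179 ± 16.1 and 145 ± 5.57 CPM without overlap (-0.30 ± 0.10, edgeR adjusted p = 0.130).

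Interferon gamma raises PD-L1 through IRF1, and the genes of that axis gave 0 calls by edgeR among 12, with 2 at an unadjusted p under 0.05 and 1 by DESeq2. Cxcl10, an interferon-induced chemokine, was at 318, 31.4 and 1692 CPM at 2 kPa and at 14.5, 7.40 and 94.4 CPM at 50 kPa, highest in replicate 3 of each group as Cd274 was. Its log2 fold change was -4.13 ± 1.62 (edgeR adjusted p = 0.166), and it moved to -2.17 when low tension replicate 3 was left out and to -5.97 when high tension replicate 3 was. Stat3, a transcription factor of cytokine signalling, stood at -0.52 ± 0.21 (edgeR adjusted p = 0.169). The list's median was -0.39. Its summed level was 2017 to 5748 CPM at 2 kPa and 1615 to 2571 CPM at 50 kPa. Its part in the levels of Cd274 was not tested.

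**Figure D5:**
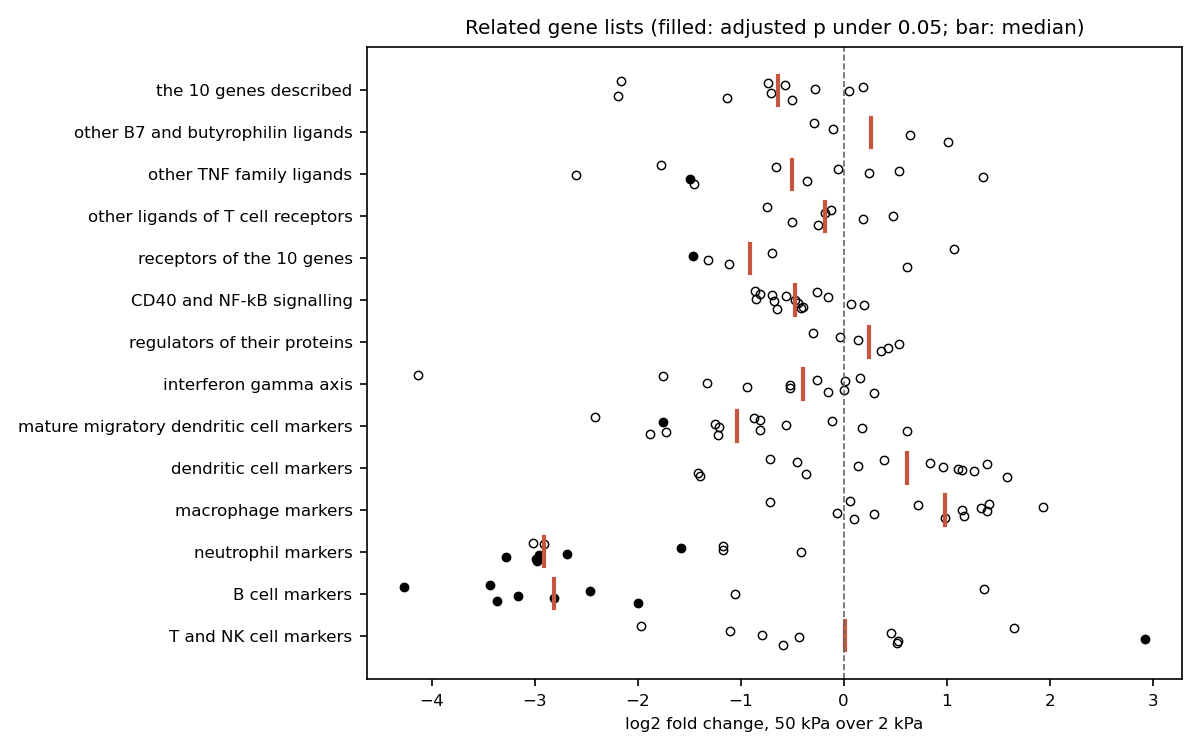
Log2 fold changes (x axis, 50 kPa over 2 kPa) of each tested gene of the 10 described genes and of 13 related lists, with genes past an edgeR adjusted p of 0.05 filled and list medians as red bars. The 10 genes had a median of -0.64 with no filled point, between their receptors at -0.90 and other TNF family ligands at -0.50.

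Markers of mature migratory dendritic cells, the cells richest in CD86, CD40 and CD83, stood lower at 50 kPa in 12 of 14 log2 fold changes, with a median of -1.04. By edgeR 1 fell and 0 rose, and 7 were lower at an unadjusted p under 0.05. The gene that fell was Nudt17, a nudix hydrolase (23.0 ± 6.88 to 6.81 ± 2.10 CPM, -1.76 ± 0.30, edgeR adjusted p = 0.0413). Its call was lost without low tension replicate 2 or 3 or high tension replicate 1 or 2, in fits that called 0 to 3 genes in all. Fscn1, the actin bundler fascin of mature dendritic cells, was at 587 ± 234 and 159 ± 77.9 CPM (-1.88 ± 0.43, edgeR adjusted p = 0.0675). The list summed to 3081 to 6879 CPM at 2 kPa and 1908 to 2939 CPM at 50 kPa, so the groups were apart. Ccl22 had the highest mean of the list in each group (1793 ± 993 and 543 ± 257 CPM), so the sum leaned on it. The 2 positive genes were Ccl17 (0.62 ± 0.37) and Socs2 (0.18 ± 0.12). The part of these markers in the levels of the 10 genes was not tested.

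The general dendritic cell list gave 0 calls by edgeR among 14, with 9 at an unadjusted p under 0.05, 6 of them higher, and 8 by DESeq2. Of its 14 log2 fold changes 9 were positive, with a median of 0.62. It summed to 6550 to 13564 CPM at 2 kPa and 16946 to 26363 CPM at 50 kPa. Most of that sum came from Cd74, Itgax and the MHC class II genes H2-Aa, H2-Ab1 and H2-Eb1, so it followed those genes and not the whole list. Its smallest p-values belonged to Dpp4 (-1.41 ± 0.28) and Batf3 (-0.46 ± 0.11), both lower. The others of the 5 negative genes were Flt3 (-1.39 ± 0.39), Irf8 (-0.71 ± 0.30) and Zbtb46 (-0.36 ± 0.19). Among the higher ones, Itgax, which encodes CD11c, stood at 1.58 ± 0.54 and Cd74, the invariant chain of MHC class II, at 0.96 ± 0.33 (edgeR adjusted p = 0.130 and 0.131), both chosen after their values were seen. Of its genes 1 of 15, Xcr1, had too few counts to be tested. Macrophage markers gave 0 calls by edgeR among 13 and 5 by DESeq2, and summed to 2154 to 4190 and 5461 to 6365 CPM. In that list 7 had an unadjusted p under 0.05, all higher, as had 1716 of 13155 tested genes. Of the 13 log2 fold changes 11 were positive, with a median of 0.98. Apoe stood at 1.94 ± 0.45 (edgeR adjusted p = 0.0675). The 2 negative genes were Fcgr1 (-0.71 ± 0.62) and Mertk (-0.06 ± 0.44).

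B cells also carry CD80, CD86, CD40, CD70 and ICOS ligand. Of 9 B cell markers 7 fell and 0 rose by edgeR, and the list summed to 889 to 1401 CPM at 2 kPa and 70.2 to 138 CPM at 50 kPa. Counted by unadjusted p under 0.05, 8 were lower and 1 higher. The higher one was Cd22, which DESeq2 called. It stood at 15.3 ± 6.88 CPM at 2 kPa against 39.4 ± 6.37 CPM at 50 kPa without overlap (1.37 ± 0.35, edgeR adjusted p = 0.0811). Ms4a1, which encodes CD20, fell from 7.26 ± 2.12 to 0.808 ± 0.367 CPM and Cd79b from 11.9 ± 4.73 to 1.69 ± 0.296 CPM (edgeR adjusted p = 0.0348 and 0.0291). Of 11 neutrophil markers 6 fell and 0 rose, with sums of 3588 to 7015 and 824 to 1448 CPM. All 7 and 6 calls of these lists, and that of Cd4, were lost without low tension replicate 2 or 3 or high tension replicate 1 or 2 (edgeR adjusted p = 0.0546 to 0.196). Those fits called 0 to 3 genes in all, so the losses say little about single genes. Without high tension replicate 3, 5 of the 7 B cell and 5 of the 6 neutrophil calls were kept (edgeR adjusted p = 0.0237 to 0.0708 over the 13 genes). At 2 kPa the B cell sum was highest in replicate 2, and 1 gene, Igj, made up most of it (763, 1209 and 761 CPM in replicates 1 to 3). The part of B cells and neutrophils in the differences was not tested.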

How the data were processed

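PolyA RNA-seq was done on 3 samples of cultured marrow per stiffness, with a directional kit per the labels' protocols. The authors deposited raw read counts per gene symbol, 1 table per library. The submitters' processing notes name FastQC 0.11.2, TopHat2 2.0.11, HTSeq 0.6.1p2, edgeR 3.16.5 and 3.8.6, and the builds mm10 and hg19, without roles. The sources used here give no annotation, no strand setting and no rule for reads with several matches.

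The test was the quasi-likelihood F test of edgeR 4.0.16 in R 4.3.3 (filterByExpr with minimum count 10 and total 15, TMM scaling, stiffness as the only factor), with Benjamini-Hochberg adjustment over 13155 genes and a threshold of 0.05. A standard error is the log2 fold change divided by the square root of F, and 95% intervals are unadjusted. DESeq2 1.42.0 and limma-voom (limma 3.58.1) were run beside it, as were other scalings and filters, a replicate block, a sum of high tension replicates 1 and 2, and fits without each library. Counts were simulated for 50 kPa against 2 kPa over 13155 genes. In them edgeR called 44.8% of 67 genes changed 2-fold, 94.0% of 67 changed 4-fold and 98.5% of 66 changed 8-fold, with 8 false calls. These shares need not hold for genes that vary as much between libraries as Cd40 and Cd70. Nor need they hold for any gene where 2 libraries of a group are as alike as high tension replicates 1 and 2. Cd40 and Cd70 stood 4.55-fold and 4.47-fold lower at 50 kPa and were not called, nor was the neutrophil marker Mpo at 8.07-fold lower. Log2 CPM used a prior count of 2, exon lengths GENCODE vM21 on GRCm38, and promoters RefSeq.

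The 10 genes and the lists were chosen with earlier results of these data known. Named from each list were genes past the threshold (of B cell and neutrophil markers, some only by count) and the 2 with the smallest p, of which 1 macrophage marker is not reported here. The genes closest in pattern were the 2 with the highest Pearson correlation among those with a mean of at least 5 CPM.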

Additional observations from a re-analysis of the deposited data

How the results depend on the processing

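Over 16 alternatives the 10 genes gave 159 log2 fold changes, of which 148 kept their direction and their side of the threshold, 7 passed it and 4 changed sign. The changes of sign were Icosl at -0.047 with total counts and -0.17 without low tension replicate 2 (-0.17 to 0.35 with 1 library left out), Cd274 at 0.50 without low tension replicate 3 (-0.69 to 0.50), and Pdcd1lg2 at -0.0070 without high tension replicate 3 (-0.0070 to 0.48). The number of the 10 genes called was 0 with all libraries and 0 with any 1 left out, 3 with the replicate block (Cd86, Cd83 and Cd70, adjusted p = 0.0387, 0.045 and 0.0372 by edgeR) and 4 with DESeq2. The adjusted p of Cd86 ranged from 0.0139 to 0.324 over its alternatives. Over all genes, 194 were called higher and 260 lower. Total-count scaling gave 77 higher, a filter of 5 CPM in 3 libraries 20 higher and 16 lower, DESeq2 1121 and 1251, the summed replicates 0 and 0, and leaving out 1 library 0 to 255 higher and 0 to 256 lower. Under total-count scaling the median over all genes was -0.16 instead of -0.03, and over the 10 genes -0.75 instead of -0.64. The replicate block gave 254 higher and 522 lower, 5.90% of tested genes. The labels do not say that a number marks a shared animal or day. For that reason the numbers were not treated as pairing the samples. Deviations of same-numbered libraries correlated with r = 0.54, -0.11 and 0.49 over genes, and 3 of 6 libraries were closest to their own number. These values cannot settle a pairing, because high tension replicates 1 and 2 were so alike that their numbers can hardly be told apart. The 3 ratios kept their direction under all alternatives run. Among the other 35 genes named by rule from the lists, 0 values changed sign. All 17 called ones lost the call without low tension replicate 3, in a fit that called 3 of 13351 tested genes. Nearly any call was lost in that fit, whatever the gene. The causes were not tested. At 11 counts in 2 libraries, Cd70 is the gene whose precision depth limits most, and the filter of 5 CPM left it out.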
